A study of Mus musculus with 4 samples.

Results

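The genes described here are 37 genes of the unfolded protein response and the secretory pathway, chosen by name, of 50766 genes in the deposited gene tables. All 37 were found by symbol. They were sorted by their textbook roles into an Ire1 arm of 10 genes, an Atf6 arm of 14 and a Perk arm of 8, with 5 genes in no arm. The sorting is a simplification, since many of these genes answer to several arms.

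Proteins bound for secretion or for membranes fold in the endoplasmic reticulum (ER), and unfolded protein there is sensed by IRE1 (gene Ern1), PERK (Eif2ak3) and ATF6 (Atf6). IRE1 splices the transcript of Xbp1, whose protein drives genes of protein import, export and degradation, and ATF6 is cut in the Golgi and drives chaperone genes. PERK phosphorylates the translation factor eIF2α, which lowers protein synthesis but favours translation of ATF4, the activator of amino acid synthesis genes and of the CHOP gene Ddit3. Other kinases act on eIF2α too, so ATF4 targets are not particular to PERK, and gene counts show neither splicing, cleavage nor phosphorylation.

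The cells came from mouse livers of genotype Sox9EGFP and were labelled biliary epithelial cells (BECs), which line the bile ducts. Sox9 is a transcription factor of these cells, and the labels used here give no strain, sex, age or sorting gate. All libraries were collected 7 days after surgery, 2 after a sham operation and 2 after bile duct ligation (BDL), which blocks the outflow of bile. The study compared the 2 groups. The labels do not say in words that the libraries are separate mice, so p-values measure only the spread between these libraries.

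The libraries held 2089 to 4065 cells. The median number of unique molecular identifiers (UMIs, counted transcripts) per cell was 3260 and 2610 after sham surgery against 7058 and 7793 after BDL, so depth moved with the group. No cell barcode was shared between libraries. A second group name stands in the deposited cell tables, and it is BDL for the library labelled sham replicate 2 and sham for the library labelled BDL replicate 2. Libraries were grouped by the sample labels throughout. As a measured fact beside those labels, the largest sham cluster of BEC-like cells held 953 and 746 cells of the libraries labelled sham and 3 and 3 cells of those labelled BDL. The 2 libraries whose names match, 1 per group, allow no test. In them all 11 members called in BEC-like cells below and the 1 called in mesenchymal-like cells had the same direction. The groups overlapped for none of these members, so at the levels given below every pair of a sham and a BDL library has that direction. The shared direction therefore cannot tell which group names are right.

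Cells were clustered without the genes of any list used here and named from markers. BEC-like cells numbered 1966 to 3814 per library, and mesenchymal-like cells, the collagen-producing cells of the liver, numbered 71 to 418. The summed level of the 11 biliary markers was 11304 to 12639 CPM (UMIs scaled to a common library total) in BEC-like cells and 1133 to 2151 CPM in mesenchymal-like cells, with no marker at 0. Their presence in both classes is given as measured, and the part of free RNA was not tested. The 12 mesenchymal markers summed to 16947 to 28253 CPM in mesenchymal-like cells. In BEC-like cells several lists moved with the group. The 11 hepatocyte markers summed to 1254 and 1289 CPM in sham and 146 and 114 CPM in BDL libraries. The 12 mesenchymal markers summed to 353 and 248 CPM in sham and 1225 and 1492 CPM in BDL libraries, with none at 0. The 15 immediate early genes, which answer within minutes to many stimuli including cell isolation, summed to 12489 and 16586 CPM in sham and 5680 and 5588 CPM in BDL libraries. The 6 mesothelial markers summed to 334 and 277 CPM in sham and 93.9 and 102 CPM in BDL libraries, the 6 Schwann cell markers to 194 and 165 CPM against 99.7 and 120.1 CPM, and the 10 endothelial markers to 47.3 and 50.3 CPM against 24.6 and 13.3 CPM. The 12 cytosolic heat shock genes summed to 4098 and 4295 CPM against 3356 and 2915 CPM, and the 8 T cell markers to 13.1 and 7.61 CPM against 6.37 and 2.50 CPM. Apart from the hepatocyte transcripts, for which values without Alb-positive cells are given below, the part of these lists in the results was not tested.

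In BEC-like cells the members changed in both directions after ligation. In the Perk arm Asns and Chac1 rose while Atf4, Ddit3 and Ppp1r15a fell, and in the Atf6 arm only Sel1l was called. Of 36 members tested, 6 rose (Xbp1, Ssr3, Sel1l, Asns, Chac1 and Creb3l2) and 5 fell (Ern1, Dnajb9, Atf4, Ddit3 and Ppp1r15a), tested by edgeR's quasi-likelihood method on summed UMIs, with Benjamini-Hochberg adjusted p over 15979 genes. Over all genes tested 27.0% were called, so the members' share of 11 in 36 was close to the background. The median log2 fold change was 0.16 over the members and -0.02 over all genes. By arm, 2 rose and 2 fell of 9 tested in the Ire1 arm, 1 rose and none fell of 14 in the Atf6 arm, and 2 rose and 3 fell of 8 in the Perk arm. Ern2, the IRE1 gene of mucous epithelia, had 3, 3, 1 and 7 UMIs in the BEC-like sums and was not tested. Both BDL libraries lay above both sham libraries for 16 members and below them for 9, and 11 overlapped, while 68.7% of all genes tested did not overlap. Fewer members were called when either sham library was left out, and so were fewer of all genes.

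**Figure D1:**
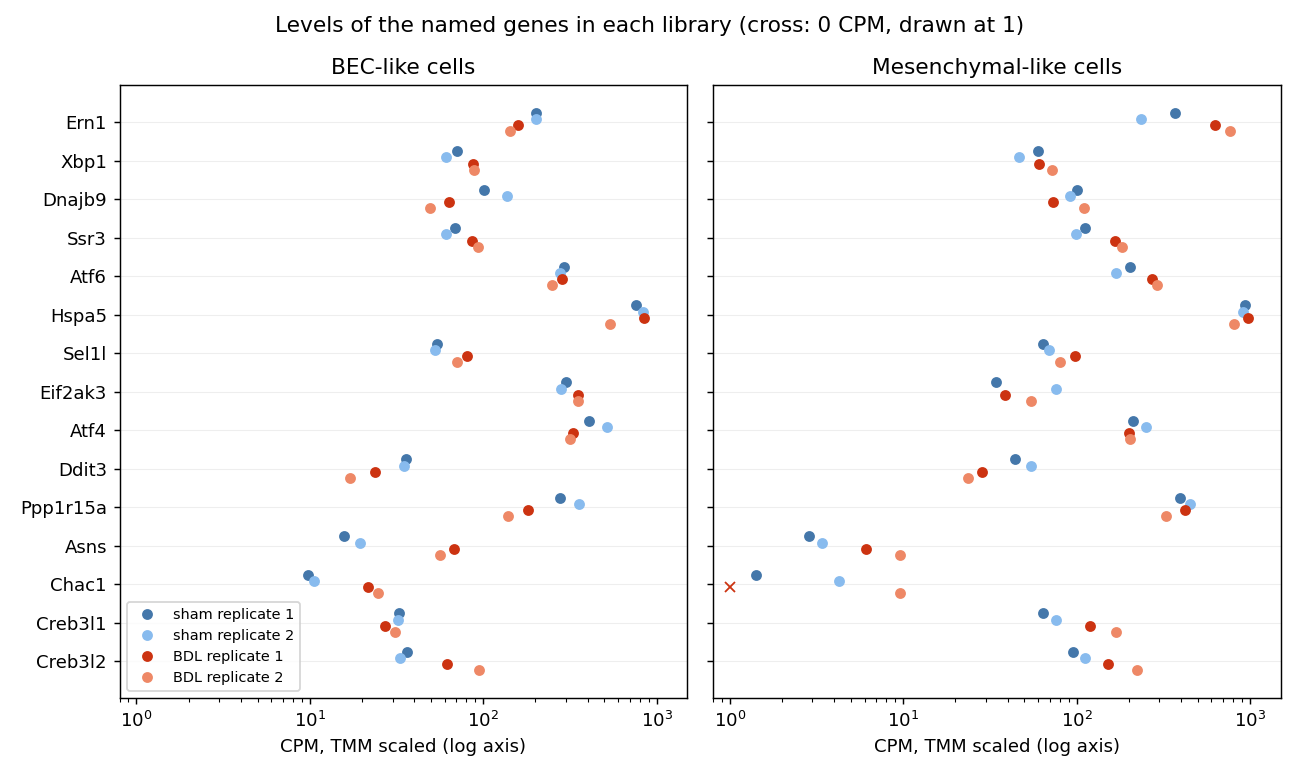
Levels of the named genes in each of the 4 libraries, in CPM scaled by the trimmed mean of M values (TMM) on a log axis, in BEC-like cells (left) and mesenchymal-like cells (right); each point is 1 library. Asns, Chac1 and Creb3l2 lie higher and Dnajb9, Ddit3 and Ppp1r15a lower in both BDL libraries of BEC-like cells, and Ern1 moves in opposite directions in the 2 classes.

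The Perk arm held both the largest rise and, beside Dnajb9, the largest falls among the members. Asns, which makes asparagine and is a classical ATF4 target, was at 15.8 and 19.5 CPM in sham and 68.0 and 56.4 CPM in BDL libraries. The groups did not overlap, and the fold was 3.53 (log2 1.82, SE 0.17, adjusted p = 0.000949). Chac1, which degrades glutathione, rose from 9.70 and 10.6 CPM to 21.6 and 24.8 CPM, a fold of 2.29 (log2 1.19, SE 0.17, adjusted p = 0.00396). In cells without a transcript of the hepatocyte gene Alb, described below, the log2 fold change was 0.88 for Asns (adjusted p = 0.0411) and 0.27 for Chac1, which was not called (adjusted p = 0.544). Trib3, a pseudokinase induced by ATF4, was higher in both BDL libraries at 27.9 and 18.8 CPM against 14.5 and 13.9 CPM, but missed the threshold (log2 0.71, SE 0.22, adjusted p = 0.0537). Sesn2, a stress-induced inhibitor of mTORC1, was at 62.0 and 65.3 CPM in sham and 97.9 and 69.0 CPM in BDL libraries and was not called (adjusted p = 0.149).

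The 3 members of the arm that fell were Atf4, Ddit3 and Ppp1r15a. Atf4 itself was at 409 and 516 CPM in sham and 328 and 316 CPM in BDL libraries (log2 -0.52, SE 0.14, adjusted p = 0.0359). Ddit3, which encodes the pro-apoptotic factor CHOP, fell from 35.9 and 35.0 CPM to 23.6 and 17.0 CPM (log2 -0.81, SE 0.18, adjusted p = 0.0202). Ppp1r15a, whose product GADD34 removes the phosphate from eIF2α, fell from 277 and 357 CPM to 181 and 139 CPM (log2 -0.99, SE 0.18, adjusted p = 0.00982). The groups did not overlap for any of these 3 genes. The sensor gene Eif2ak3 was at 300.3 and 281 CPM in sham and 352 and 352 CPM in BDL libraries, without overlap but not called (log2 0.28, SE 0.11, adjusted p = 0.102). The immediate early genes given above fell in the same libraries as Atf4, Ddit3 and Ppp1r15a. Without sham replicate 2, Atf4 (log2 -0.32, adjusted p = 0.23), Ddit3 (-0.81, adjusted p = 0.0962) and Ppp1r15a (-0.77, adjusted p = 0.0575) were not called, and without sham replicate 1 Ddit3 was not called (adjusted p = 0.121).

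The promoter windows of the 3 ATF4 targets Asns, Chac1 and Trib3 are shown because they held the letters of the C/EBP-ATF response element, TGATGNAA, searched on both strands. The windows run from 250 bases before to 50 bases after the transcript start, 5′ to 3′ along the gene, from RefSeq on GRCm38.p6, matched by symbol because the counts were made on another build. They lie at chr6:7693160-7693459 (minus strand), chr2:119350992-119351291 (plus strand) and chr2:152344011-152344310 (minus strand), and capitals mark the match.
Asns: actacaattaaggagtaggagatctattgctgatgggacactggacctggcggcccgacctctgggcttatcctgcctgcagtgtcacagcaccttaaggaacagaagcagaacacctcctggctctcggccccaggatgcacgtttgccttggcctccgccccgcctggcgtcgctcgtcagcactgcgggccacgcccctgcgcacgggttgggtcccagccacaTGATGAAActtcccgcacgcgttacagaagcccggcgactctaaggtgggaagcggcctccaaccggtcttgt
Chac1: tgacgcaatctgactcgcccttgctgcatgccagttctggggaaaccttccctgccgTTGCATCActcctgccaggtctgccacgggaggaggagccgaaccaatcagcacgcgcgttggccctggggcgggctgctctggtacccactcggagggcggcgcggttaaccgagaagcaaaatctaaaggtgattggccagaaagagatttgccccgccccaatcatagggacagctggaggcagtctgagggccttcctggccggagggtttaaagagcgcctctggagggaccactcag
Trib3: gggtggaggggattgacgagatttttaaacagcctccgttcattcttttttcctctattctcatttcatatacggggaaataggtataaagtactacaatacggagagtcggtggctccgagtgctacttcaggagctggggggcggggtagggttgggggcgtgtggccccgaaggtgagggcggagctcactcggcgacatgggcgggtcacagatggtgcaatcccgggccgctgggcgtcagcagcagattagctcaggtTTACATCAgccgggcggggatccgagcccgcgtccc
The match began at base -23 from the start in Asns, -193 in Chac1 and 14 in Trib3, and was read on the opposite strand in the last 2. Windows were at hand for 31 of the 37 members. Of these, 4 held the element, the fourth being Herpud1, and 3.969% of all 32851 RefSeq windows held it. The windows of Atf4, Ddit3 and Ppp1r15a held neither this element nor those given below, which says only that these letters are not in these windows.

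The shares of BEC-like cells with a transcript of Asns or Ddit3 moved as the levels did when every cell was thinned to 1000 UMIs. Thinning left out 85 and 107 shallower sham cells and no BDL cell. Thinned shares of Sesn2 overlapped, at 6.314% and 5.594% in sham and 9.715% and 5.899% in BDL BEC-like cells. Asns was seen in 1.66% (95% Clopper-Pearson interval 1.20 to 2.23) and 1.77% (1.29 to 2.37) of sham BEC-like cells and in 5.39% (4.43 to 6.48) and 4.96% (4.29 to 5.69) of BDL BEC-like cells. Unthinned, the shares were 5.23% and 5.01% against 31.6% and 30.6%, at median depths of 3296 and 2762 against 7130 and 7875 UMIs. Ddit3 was seen in 3.79% and 3.10% of thinned sham cells and 1.83% and 1.86% of thinned BDL cells. Its unthinned shares of 11.7% and 9.03% against 14.4% and 11.8% did not show that order, at depths that differed. Thinned mesenchymal-like cells had no Asns transcript in 181, 372, 71 and 133 cells, which allows shares of up to 1.66%, 0.806%, 4.23% and 2.26% of cells with a transcript at that thinned depth when 3 cells are set against each count of 0. The upper Clopper-Pearson bounds were 2.02%, 0.987%, 5.06% and 2.73%. Unthinned, the shares were 1.06% and 0.957% in sham and 4.23% and 4.51% in BDL libraries, where the median cell held 3222 and 2297 against 6294 and 7329 UMIs. The intervals cover counting error only, and with 2 libraries a group an exact permutation test cannot go below p = 0.33.

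In the Ire1 arm Ern1 was called lower and Xbp1 higher. Ern1 was at 202 and 201 CPM in sham and 159 and 143 CPM in BDL libraries (log2 -0.42, SE 0.11, adjusted p = 0.0338). Xbp1 was at 70.8 and 60.8 CPM in sham and 87.6 and 88.1 CPM in BDL libraries (log2 0.42, SE 0.12, adjusted p = 0.0454). The groups did not overlap for either gene. Random priming lets intronic reads add to a gene's count, and spliced and unspliced Xbp1 are counted as 1 gene.

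Among the arm's targets, Dnajb9, a co-chaperone that represses IRE1, fell most. It was at 101 and 137 CPM in sham and 63.3 and 49.2 CPM in BDL libraries, a fold of 0.473 (log2 -1.08, SE 0.19, adjusted p = 0.00887). Ssr3, a subunit of the translocon-associated complex, rose from 69.1 and 61.3 CPM to 85.7 and 93.1 CPM (log2 0.46, SE 0.12, adjusted p = 0.0336). The translocon genes Sec61a1 (log2 0.40, adjusted p = 0.0547) and Sec61b (0.41, adjusted p = 0.0915) were not called, nor was the co-chaperone gene Dnajc3 (-0.35, adjusted p = 0.0636). Edem1, of ER-associated degradation, and Sec24d, of the vesicle coat that leaves the ER, had log2 fold changes of -0.05 and -0.15. Without sham replicate 1 or without sham replicate 2, Ern1, Xbp1 and Ssr3 were not called, with adjusted p from 0.106 to 0.263. Xbp1 also missed the threshold by DESeq2 (adjusted p = 0.0559), and in cells without an Alb transcript, described below, it turned to a log2 fold change of -0.03 (adjusted p = 0.928). Ern1 was also not called without BDL replicate 2 (adjusted p = 0.106), with no filter on low counts (0.175) or in thinned sums (0.055), and Dnajb9 was not called without sham replicate 2 (log2 -0.82, adjusted p = 0.0559).

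The Atf6 arm held 1 call among 14 genes. Sel1l, the scaffold of the main ER degradation complex, rose from 54.0 and 52.8 CPM to 80.5 and 70.4 CPM (log2 0.50, SE 0.12, adjusted p = 0.0259), and was not called without either sham library (adjusted p = 0.139 and 0.145). The sensor gene Atf6 was at 294 and 277 CPM in sham and 286 and 249 CPM in BDL libraries, with overlapping groups (log2 -0.10, SE 0.12, adjusted p = 0.584). Hspa5, the gene of the chaperone BiP and the usual readout of ER stress, was at 761 and 832 CPM in sham and 842 and 538 CPM in BDL libraries. Its BDL libraries lay on either side of the sham libraries (log2 -0.21, SE 0.21, adjusted p = 0.493). Hsp90b1, Calr, Pdia4 and Pdia6, which fold glycoproteins or form disulfide bonds, had log2 fold changes between -0.07 and 0.14, all with overlapping groups. Hyou1, a large ER chaperone, was higher in both BDL libraries at 30.1 and 39.7 CPM against 23.8 and 24.8 CPM but missed the threshold (log2 0.53, SE 0.17, adjusted p = 0.0583). The rest of the arm lay between 0.16 and 0.61.

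The Hspa5 and Herpud1 windows are shown because they held matches to the elements that ATF6 and XBP1 read. The ER stress response element is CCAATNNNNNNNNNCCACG and its shorter form (ERSE-II) is ATTGG and CCACG with 1 free base between them; both were searched on both strands. Hspa5 lies at chr2:34771840-34772139 (plus strand) and Herpud1, a gene of ER-associated degradation, at chr8:94386179-94386478 (plus strand), on GRCm38.p6. Capitals mark the long element in Hspa5, and in Herpud1 first the C/EBP-ATF element on the opposite strand and then the shorter form.
Hspa5: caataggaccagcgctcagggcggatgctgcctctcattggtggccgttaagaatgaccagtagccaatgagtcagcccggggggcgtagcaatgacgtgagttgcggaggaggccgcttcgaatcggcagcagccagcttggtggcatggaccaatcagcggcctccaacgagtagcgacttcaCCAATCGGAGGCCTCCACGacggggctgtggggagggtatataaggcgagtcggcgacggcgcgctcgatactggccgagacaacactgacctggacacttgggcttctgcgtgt
Herpud1: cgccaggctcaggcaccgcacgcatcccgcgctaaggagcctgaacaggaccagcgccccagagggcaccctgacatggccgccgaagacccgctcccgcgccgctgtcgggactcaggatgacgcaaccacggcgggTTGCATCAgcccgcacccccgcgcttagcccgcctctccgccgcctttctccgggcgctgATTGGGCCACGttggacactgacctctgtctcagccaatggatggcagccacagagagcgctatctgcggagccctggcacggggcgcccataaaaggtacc
The long element was in 8 of the 31 windows, those of Hspa5, Hsp90b1, Calr, Pdia6, Creld2, Syvn1, Dnajc3 and Canx, and in 0.119% of all windows. The shorter form was in Herpud1 and Dnajb11 and in 0.037% of all windows. The letters TGACGTGG, read by XBP1 and ATF6, were in the window of Sec24d and in 0.676% of all windows. None of these 11 genes was called in BEC-like cells, where 27.0% of all genes were called. Whether the elements bear on this was not tested.

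Of the 5 genes in no arm, Creb3l2 rose. It encodes an ER-bound transcription factor of secretory cells that is freed by cleavage like ATF6. It was at 36.3 and 33.0 CPM in sham and 61.5 and 95.1 CPM in BDL libraries, a fold of 2.27 (log2 1.18, SE 0.21, adjusted p = 0.00981). Without either sham library it was not called (adjusted p = 0.0687 and 0.0704). Its relative Creb3l1 was at 32.7 and 32.3 CPM in sham and 27.2 and 31.2 CPM in BDL libraries (log2 -0.15, adjusted p = 0.433). Canx, Pdia3 and P4hb, which fold glycoproteins and form disulfide bonds, were not called (log2 0.13, 0.29 and -0.10).

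**Figure D2:**
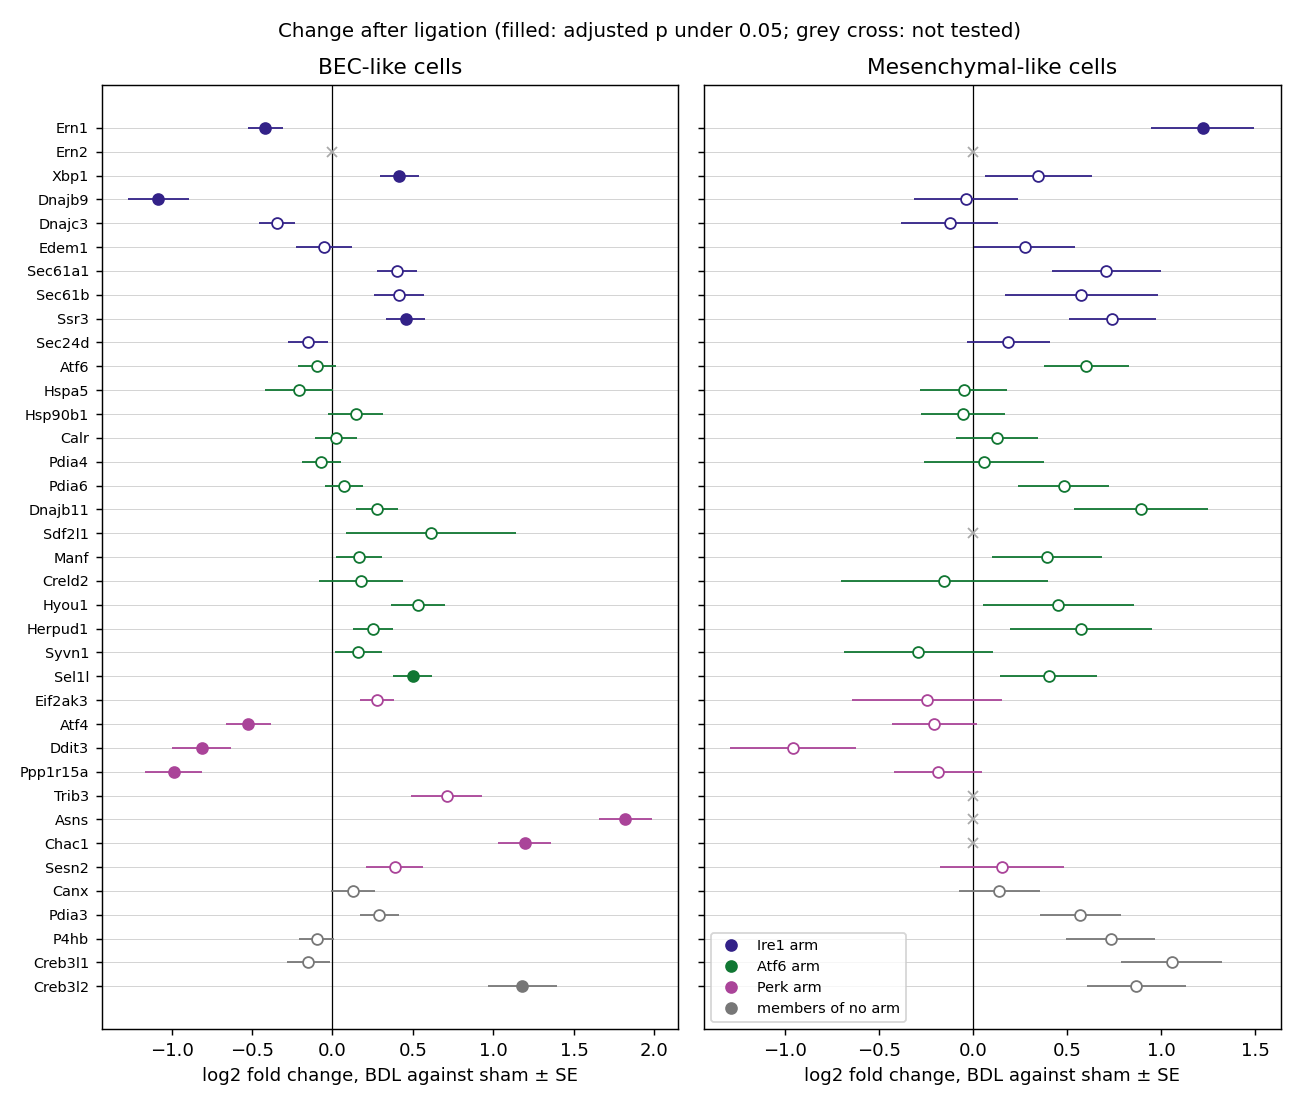
Log2 fold change of BDL against sham for the 37 members, ± SE, in BEC-like cells (left) and mesenchymal-like cells (right), coloured by arm. Filled points passed an adjusted p of 0.05, open points did not, and grey crosses were not tested; 11 points are filled on the left and 1, Ern1, on the right.

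Hepatocyte transcripts moved with the group, so the BEC-like sums were also taken without cells that held a transcript of Alb, which left 623 and 688 sham cells and 1342 and 2876 BDL cells. The sham sums then held 1808163 and 1883451 UMIs and the BDL sums 9715825 and 23466399. Of the 11 members called, 5 were called in these cells: Dnajb9, Atf4, Ppp1r15a, Asns and Creb3l2. Over all genes 1429 were called in these sums against 4315 in the full ones. The cells left were shallower, with a median of 2606 UMIs in sham replicate 1 against 3296 over all its BEC-like cells. The mix of clusters shifted too: the cluster led by Car4 and Sgcd, in which Asns was highest among the sham clusters, made up 19.9% and 25.7% of all sham BEC-like cells and 47.7% and 54.6% of those without an Alb transcript. In BDL libraries the largest cluster, led by Nos2, held 595 of 1966 and 1385 of 3814 cells before and 425 of 1342 and 1065 of 2876 cells after that step. How far this shift moved the values was not tested.

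Genes related to the members, in lists taken from textbook roles, were read in the same fit. The 35 tested of 36 other ATF4 and amino acid response genes showed the most calls of the secretory lists: 26 rose and 1 fell, with a median log2 fold change of 0.78, where 14.1% of all genes rose and 12.9% fell. Nupr1, a stress-induced chromatin protein, rose from 9.22 and 11.1 CPM to 95.4 and 129 CPM (log2 3.47, SE 0.20, adjusted p = 0.000397). Mthfd2, of mitochondrial folate metabolism, rose from 19.8 and 21.8 CPM to 77.0 and 57.9 CPM (log2 1.69, SE 0.17, adjusted p = 0.00135). The gene that fell was Atf3, a stress-induced and immediate early transcription factor, from 1484 and 1881 CPM to 560.3 and 450.4 CPM (log2 -1.74, SE 0.17, adjusted p = 0.00128). The count of rises was lower when either sham library was left out, and fewer of all genes were called there too. It was 6 in cells without an Alb transcript, where 24 of the 26 kept their direction. In those cells 1429 of 13475 genes were called in either direction, against 4315 of 15979 in the full sums.

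**Figure D3:**
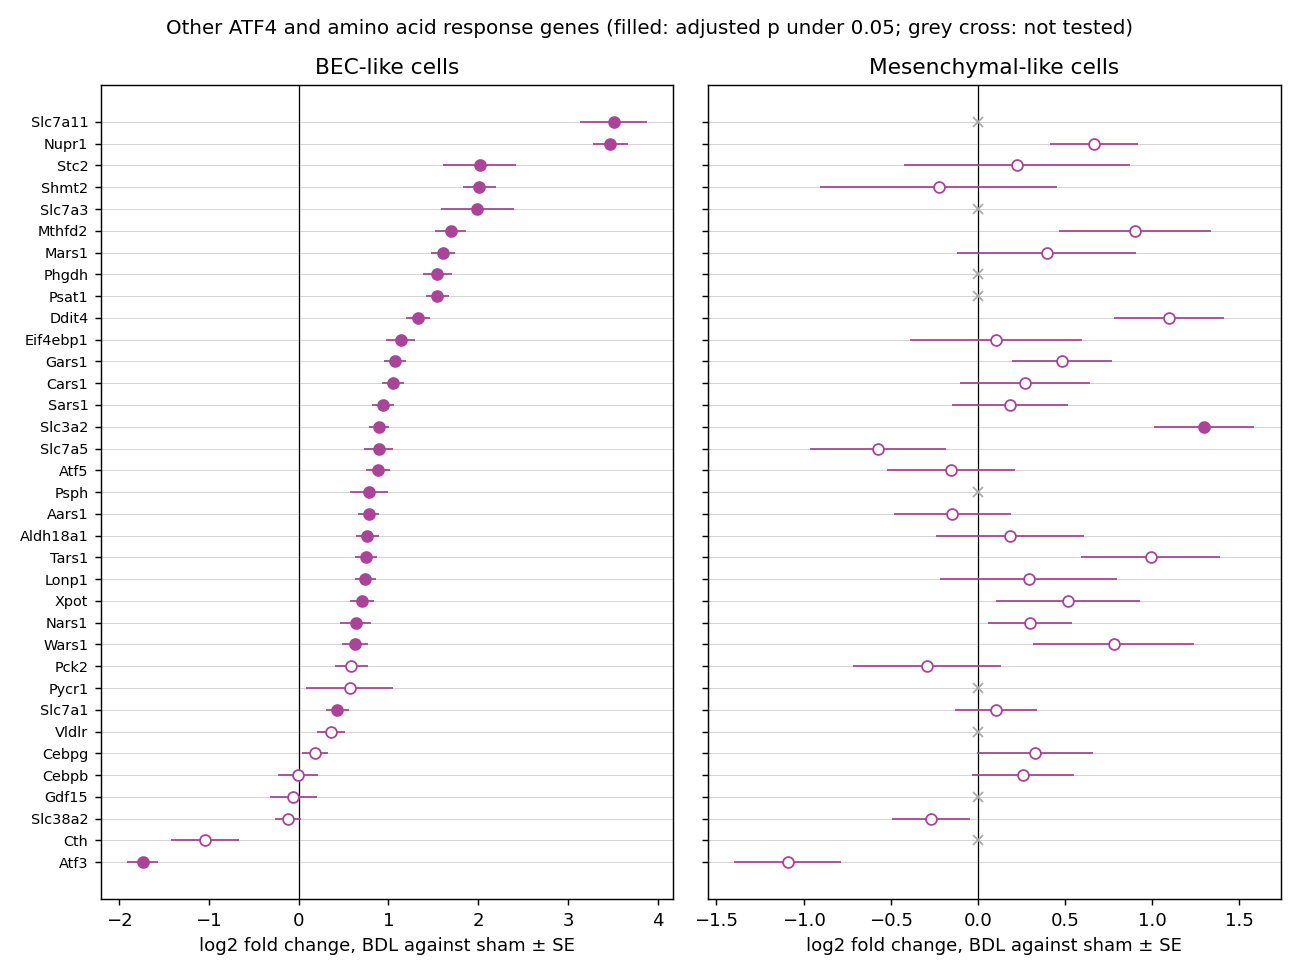
Log2 fold change of BDL against sham, ± SE, for the 35 other ATF4 and amino acid response genes tested in BEC-like cells (left), in the order of that change, and for the same genes in mesenchymal-like cells (right); filled points passed an adjusted p of 0.05 and grey crosses were not tested. On the left 26 genes rose and Atf3 fell, and on the right 1 gene, Slc3a2, was called.

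The other lists of the secretory pathway held fewer calls, and their shares called in either direction were close to the 27.0% of all genes. Of all genes 14.1% rose and 12.9% fell. Of 43 other ER folding and degradation genes, 10 rose and 2 fell, among them Dnajc10, an ER disulfide reductase, from 49.1 and 44.8 CPM to 142 and 154 CPM (log2 1.65, SE 0.12, adjusted p = 0.000467). Mbtps2, the protease that releases ATF6 from its membrane, rose from 18.3 and 18.2 CPM to 28.7 and 29.7 CPM (log2 0.68, adjusted p = 0.0131). Of 50 translocation, glycosylation and ER export genes, 10 rose and 2 fell, with the coat genes Sec24b (log2 0.79, adjusted p = 0.00725) and Sec24c (0.61, adjusted p = 0.0161) among the rises and the translocon gene Sec62 (-0.58, adjusted p = 0.0103) among the falls. Of 21 collagen and collagen processing genes 3 rose and 2 fell: the collagen glycosyltransferase gene Colgalt1 rose (log2 1.69, adjusted p = 0.000897), as did the collagen chaperone gene Serpinh1 (0.88, adjusted p = 0.00396), and the prolyl hydroxylase gene P4ha1 fell (-0.67, adjusted p = 0.00907).

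Stress genes outside the ER were read from a list of cytosolic heat shock genes and one of immediate early genes. Of 12 cytosolic heat shock genes 7 fell and 1 rose, where 12.9% of all genes fell and 14.1% rose. Dnajb1 (log2 -1.37, adjusted p = 0.00411) and Hspa1a (-0.88, adjusted p = 0.00397) were among the falls, and the small heat shock gene Hspb1 rose (0.64, adjusted p = 0.0169). Of 15 immediate early genes 12 fell, such as Socs3 (log2 -2.36, adjusted p = 0.000438) and Jun (-2.22, adjusted p = 0.00147), and Ier3 rose (0.82, adjusted p = 0.00458).

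Within BEC-like cells Asns and several other Perk arm genes differed between clusters made without the genes of the arm. Asns ranged from 3.09 to 43.6 CPM of all UMIs over the 8 sham cluster values and from 12.5 to 97.5 CPM over the 12 BDL values, counting clusters with at least 30 cells in a library. In sham libraries it was highest in the cluster led by Car4 and Sgcd, at 43.6 and 42.8 CPM, and intermediate in that led by Stxbp5l and Nrn1, at 16.2 and 11.6 CPM. It was lowest in the clusters led by Ddit4l and Txnip, at 3.53 and 4.59 CPM, and by Aldh3b3, at 3.09 and 5.10 CPM. In BDL libraries it was 53.1 to 97.5 CPM in the clusters led by Nos2, by Ankrd1 and Ccn2, by Dmbt1 and Duox2 and by the cycling genes Cenpf and Mki67. It was 12.6 and 14.8 CPM in the cluster led by Wnt9a and 12.5 and 25.9 CPM in that led by Iqch and Ryr1. Thus the highest sham cluster lay above the lowest BDL clusters. Few clusters were shared between the groups, and values are not compared across groups within a cluster.

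Chac1, Trib3 and Sesn2 followed much the same order of clusters as Asns, with Trib3 close in the Nrn1 and Aldh3b3 clusters of sham replicate 2 at 10.5 and 10.2 CPM. To set them side by side, the clusters with Asns above 10 CPM in sham and above 50 CPM in BDL libraries were pooled against the other large clusters of the same library, a division chosen after the values were seen. Chac1 was then at 15.6 and 15.7 CPM against 1.27 and 1.78 CPM in sham and 26.4 and 26.8 CPM against 3.22 and 7.25 CPM in BDL libraries. Sesn2 was at 87.4 and 83.2 CPM against 31.1 and 30.5 CPM in sham and 112 and 72.4 CPM against 38.6 and 37.6 CPM in BDL libraries. Ddit3 had the opposite order, at 29.5 and 26.4 CPM against 50.2 and 43.5 CPM in sham and 20.3 and 15.1 CPM against 35.1 and 29.8 CPM in BDL libraries. Atf4 was higher where Asns was, at 516 and 559 CPM against 310.0 and 396 CPM in sham and 351 and 322 CPM against 222 and 247 CPM in BDL libraries. Ppp1r15a did not hold 1 order, at 311 and 323 CPM against 272 and 369 CPM in sham and 174 and 127 CPM against 196 and 223 CPM in BDL libraries.

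The other ATF4 and amino acid response genes, which did not choose these clusters, shared the division. Of 35 tested, 26 (74.3%) were higher in the Asns-high clusters in all 4 libraries and 2 were lower, while over all 15979 genes 15.3% were higher and 35.9% lower. Psat1, of serine synthesis and named after its values were seen, was at 20.6 and 18.6 CPM against 5.60 and 5.33 CPM in sham and 48.9 and 45.1 CPM against 14.5 and 13.7 CPM in BDL libraries. Of the Atf6 arm 1 of 14 genes was higher and 6 were lower, and of the Ire1 arm 1 of 9 was higher and 3 were lower, shares not far from those of all genes. Of the 15 immediate early genes 12 were lower in the Asns-high clusters in all 4 libraries, and their part was not tested. The comparisons within a library share its depth and free RNA and are given without a test.

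**Figure D4:**
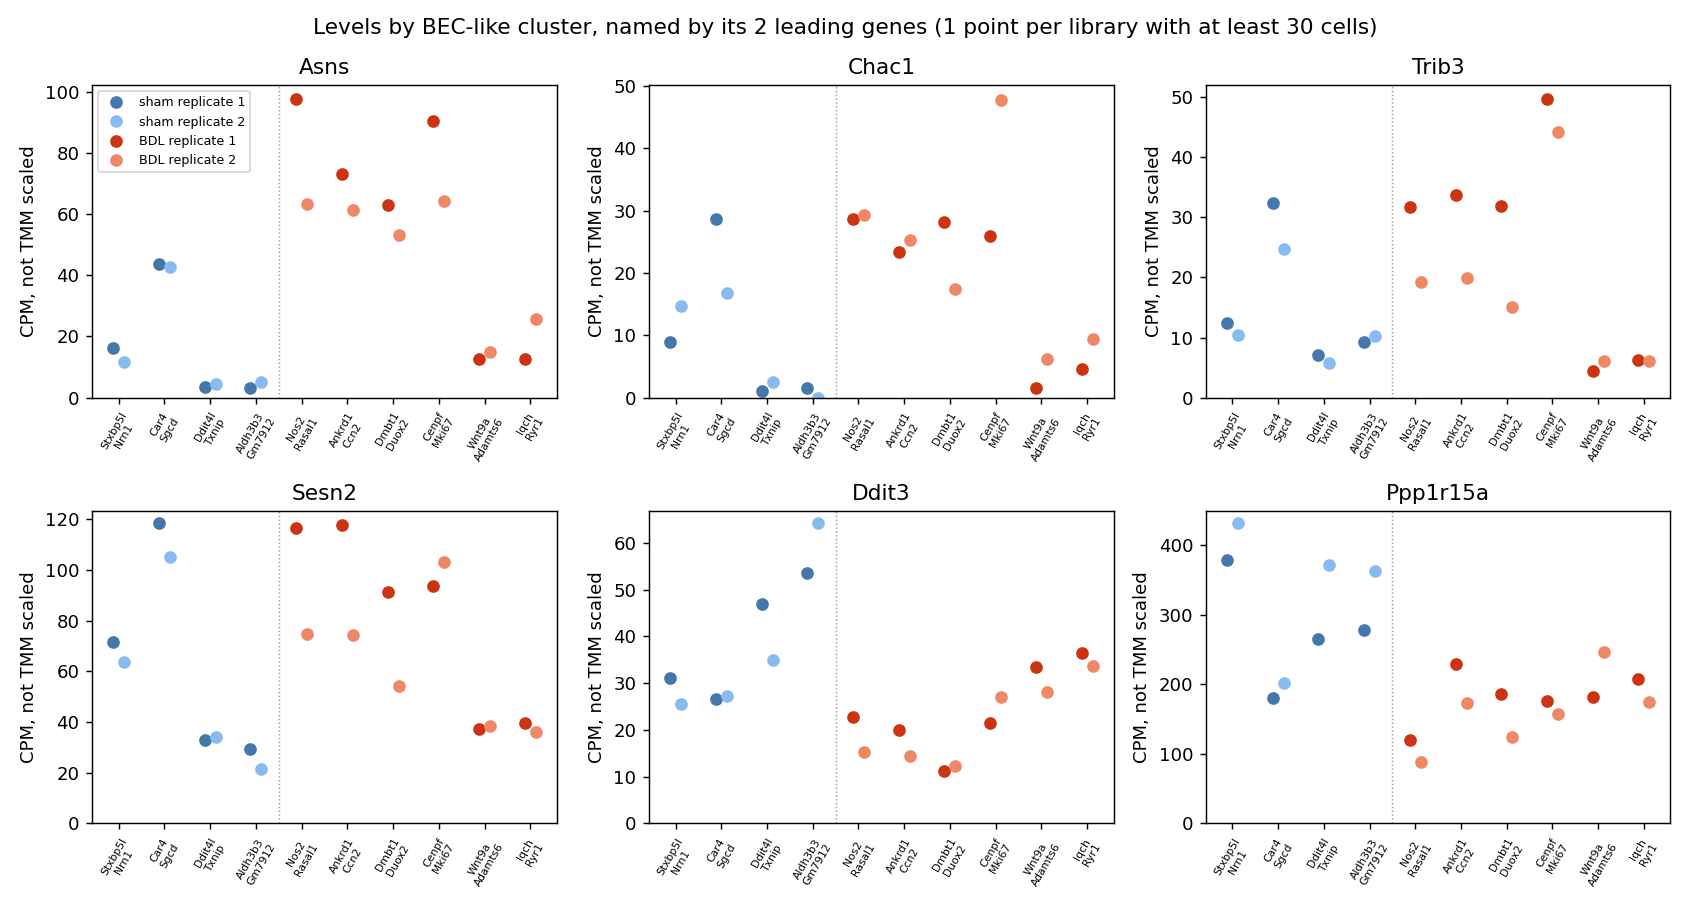
Levels of 6 Perk arm genes in 10 BEC-like clusters, in CPM of all UMIs on linear axes from 0, with 1 point per library that has at least 30 cells in the cluster; clusters left of the dotted line are mostly sham cells. Asns, Chac1, Trib3 and Sesn2 are highest among sham clusters in the Car4 cluster and lowest among BDL clusters in the Wnt9a and Iqch clusters, and Ddit3 is highest in the Aldh3b3 cluster, at 53.5 and 64.2 CPM.

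The spread over BEC-like clusters differed among the chaperone and folding genes. The highest value was 1.18 times the lowest for Calr, 1.41 for Hsp90b1 and 1.74 for Hspa5 over the sham cluster values, against 14.1 for Asns, and 1.36, 2.73 and 2.24 against 7.80 over the BDL values. These values pool the clusters of both libraries of a group, so the ranges hold the difference between libraries as well. Over the BDL clusters Hspa5 was 684 to 1006 CPM within replicate 1 and 450 to 609 CPM within replicate 2. Creld2 and Sdf2l1, folding genes of the Atf6 arm with few UMIs, ranged 3.37-fold and 13.5-fold over the BDL values. Xbp1 ranged 3.57-fold over the BDL values, from 35.7 CPM in the Wnt9a cluster to 127 CPM in the Nos2 cluster, both in BDL replicate 1. In BDL replicate 2 it was at 57.7 CPM in the Wnt9a cluster and 107.5 CPM in the Nos2 cluster. In the same Nos2 cluster Creb3l2 was at 75.3 and 124 CPM, against 44.6 and 50.7 CPM in the Wnt9a cluster. Asns, Creld2 and Sdf2l1 have fewer UMIs per cluster than Calr, Hsp90b1 and Hspa5, so their ranges hold more counting error.

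In mesenchymal-like cells 1 of 32 members tested was called after ligation, Ern1, which rose where it fell in BEC-like cells. Over all 8821 genes tested 5.55% were called. Ern1 was at 368 and 235 CPM in sham and 624 and 769.9 CPM in BDL libraries, without overlap, a fold of 2.33 (log2 1.22, SE 0.28, adjusted p = 0.0384). The sums were shallow, at 513495 to 1272359 UMIs a library, and Ern2, Sdf2l1, Trib3, Asns and Chac1 had too few UMIs to be tested. The median log2 fold change of the members tested was 0.31, against 0.00 over all genes, and 17 members lay above, 2 below and 13 overlapped, where 51.7% of all genes did not overlap. The call of Ern1 was lost without sham replicate 2 (log2 0.92, adjusted p = 0.145) and without BDL replicate 1 (1.35, adjusted p = 0.0708).

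After Ern1 the largest positive log2 fold changes were those of Creb3l1, Dnajb11 and Creb3l2, none of which was called. Creb3l1, which drives collagen secretion genes in bone and fibroblasts, was at 64.1 and 75.8 CPM in sham and 120.0 and 169 CPM in BDL libraries (log2 1.06, SE 0.27, adjusted p = 0.0579). Creb3l2 was at 95.5 and 112 CPM in sham and 153 and 224 CPM in BDL libraries (log2 0.87, SE 0.26, adjusted p = 0.097). Dnajb11, an ER co-chaperone gene, was at 25.6 and 21.3 CPM in sham and 50.9 and 37.7 CPM in BDL libraries (log2 0.89, SE 0.36, adjusted p = 0.188). The groups did not overlap for any of the 3 genes. P4hb, a subunit of collagen prolyl hydroxylase, was at 218 and 168 CPM against 303 and 334 CPM (log2 0.73, adjusted p = 0.112).

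The other sensors and factors were not called either. Atf6 was at 204 and 169 CPM in sham and 271 and 292 CPM in BDL libraries (log2 0.60, adjusted p = 0.167), and Hspa5 at 936 and 907 CPM against 972 and 810.1 CPM (-0.05, adjusted p = 0.931). Xbp1 was at 59.8 and 46.8 CPM against 61.0 and 71.8 CPM (log2 0.35, adjusted p = 0.541). Eif2ak3, at 34.2 and 75.8 CPM against 38.6 and 54.3 CPM, overlapped between the groups (adjusted p = 0.787). Ddit3, at 44.2 and 54.5 CPM against 28.5 and 23.6 CPM, did not overlap and had a log2 fold change of -0.96 (SE 0.33, adjusted p = 0.14). Atf4 (log2 -0.21, adjusted p = 0.661) and Ppp1r15a (-0.19, adjusted p = 0.713) were not called.

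The make-up of the mesenchymal-like class moved with the group. The cluster led by Colec10 held 108 and 317 cells in sham and 27 and 22 cells in BDL libraries, and the cluster led by C7 and Mgp held 64 and 89 against 44 and 106 cells. Within the C7 cluster Ern1 was at 263 and 154 CPM of all UMIs in sham and 541 and 834 CPM in BDL libraries, and Creb3l1 at 40.4 and 70.4 CPM against 87.4 and 149 CPM. Within the Colec10 cluster alone, the largest of the class, Ern1 was not called (log2 0.92, adjusted p = 0.248), and Creb3l1 was (log2 1.77, adjusted p = 0.0498). Marker lists of other cell types moved with the group in mesenchymal-like cells as well. The 10 endothelial markers summed to 377 and 324 CPM in sham and 676 and 752 CPM in BDL libraries, with up to 4 of them at 0 in a library. The 6 mesothelial markers summed to 100.0 and 199 CPM against 19.5 and 60.9 CPM, and the 8 T cell markers to 52.1 and 47.9 CPM against 5.84 and 5.29 CPM, with Cd3d, Cd3e, Cd3g and Cd8a at 0 in every library. The immediate early genes summed to 16981 and 18565 CPM against 13297 and 13765 CPM. The 11 biliary markers overlapped between the groups, at 1337 and 2146 CPM in sham and 1133 and 2151 CPM in BDL libraries. The part of these lists in the values of Ern1 and Creb3l1 was not tested.

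Of the related lists in mesenchymal-like cells, collagen and its processing rose most: 5 of 24 genes rose and none fell. Of all genes tested there 2.13% rose and 3.42% fell, so the single rises of 3 lists below were near that share. Col6a3 was at 462 and 435 CPM in sham and 1886 and 2252 CPM in BDL libraries (log2 2.21, SE 0.25, adjusted p = 0.0053), and Col6a2 rose from 201 and 158 CPM to 500.4 and 804 CPM (1.87, SE 0.29, adjusted p = 0.012). In each of 3 lists 1 gene rose and none fell: the amino acid transporter subunit Slc3a2 (log2 1.30, adjusted p = 0.0359) of 26 ATF4 genes, the disulfide isomerase Txndc5 (1.16, adjusted p = 0.0332) of 36 folding genes and the coatomer gene Copa (0.96, adjusted p = 0.0447) of 48 translocation and export genes. Of 12 heat shock genes 4 fell, among them Hspa1a (log2 -1.60, adjusted p = 0.0104) and Dnaja1 (-1.40, adjusted p = 0.0163). None of 15 immediate early genes was called by edgeR or by DESeq2, and 4 fell at an unadjusted p under 0.05 in edgeR.

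The difference in response between the classes was tested in a fit of both classes with the library as a block. Of 36 members tested, Ern1 and Creb3l1 responded differently, where 4.45% of 15315 genes did. The change of Ern1 in BEC-like cells was lower than that in mesenchymal-like cells by a log2 difference of -1.66 (SE 0.29, adjusted p = 0.00389), and that of Creb3l1 by -1.20 (SE 0.29, adjusted p = 0.0282). Ern1 was called when any 1 library was left out, with differences from -2.02 to -1.40. Creb3l1 was not called without sham replicate 1 (-1.13, adjusted p = 0.0979) or without BDL replicate 2 (adjusted p = 0.255), nor by DESeq2 (adjusted p = 0.123). For Asns (0.33, SE 0.72) and Chac1 (0.19, SE 0.98) the difference was smaller than its error. Of the other lists, 7 of 15 immediate early genes and 5 of 24 collagen genes had a lower response in BEC-like cells, and 1 collagen gene and 1 of 35 other ATF4 genes had a higher one. Their part in the result for Ern1 and Creb3l1 was not tested.

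Members of each arm also differed between the classes within each group, and no arm was tested as a whole. In sham libraries 10 members were higher and 7 lower in mesenchymal-like than in BEC-like cells, of 36 tested, where 36.3% of all genes differed. In BDL libraries 15 were higher and 7 lower, where 40.1% of all genes differed. The Ire1 arm held 4 higher calls of 9 in sham and 6 of 9 in BDL libraries and no lower call, where 18.7% and 18.8% of all genes were higher. DESeq2 called 2 and 5 of them higher. The Perk arm held 5 lower calls of 8 in sham libraries, and 6 lower and 1 higher in BDL libraries. Of all genes 17.7% were lower in sham and 21.3% in BDL libraries. The median log2 difference was 0.53 and 0.89 in the Ire1 arm, 0.38 and 0.44 in the Atf6 arm and -1.37 and -1.52 in the Perk arm, in sham and BDL libraries, against -0.08 and -0.20 over all genes. Of the Atf6 arm 3 were higher and 2 lower of 14 in sham, and 4 higher and 1 lower in BDL libraries. These calls were not above the shares of all genes that differed. Immediate early genes were higher in mesenchymal-like cells for 8 of 15 in sham and 11 of 15 in BDL libraries, and lower for 2 in each.

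The lower members were led by the Perk sensor gene and the ATF4 targets. Eif2ak3 in mesenchymal-like cells was 0.111 and 0.268 times its BEC-like level in the sham libraries and 0.105 and 0.157 times in the BDL libraries, on a scale set over all 8 sums. The log2 differences were -2.41 (SE 0.27, adjusted p = 3.83e-06) in sham and -2.90 (SE 0.28, adjusted p = 7.17e-07) in BDL libraries. Asns was at ratios of 0.176 and 0.174 in sham and 0.0856 and 0.174 in BDL libraries (log2 -2.51 and -2.84, adjusted p = 0.000546 and 6.59e-06). Trib3 (log2 -3.72 and -2.56) and Sesn2 (-0.98 and -1.13) were lower in both groups, and so was Atf4 (-1.01 and -0.70). In BDL libraries Atf4 was not called by DESeq2 (adjusted p = 0.078) or without BDL replicate 1 (0.0711). Trib3 and Asns rested on 1 to 11 UMIs a library in mesenchymal-like cells, and Chac1 on 0 and 11 UMIs in the BDL libraries. Chac1 was called lower in BDL libraries (-1.91, adjusted p = 0.00944), not without BDL replicate 1 (-1.39, adjusted p = 0.051). Ppp1r15a was higher in mesenchymal-like cells of BDL libraries, at 2.22 and 2.38 times the BEC-like level (log2 1.20, adjusted p = 6.93e-05), and Ddit3 was not called in either group.

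Among the members higher in mesenchymal-like cells, Sec24d was 2.69 and 2.68 times its BEC-like level in sham and 3.34 and 3.47 times in BDL libraries (log2 1.42 and 1.77, adjusted p = 1.65e-05 and 1.57e-06). Dnajc3 (log2 1.02 and 1.26), Ssr3 (0.68 and 0.95) and Edem1 (0.58 and 0.89) were higher in both groups, as were Hsp90b1 (0.93 and 0.75) and Pdia6 (0.64 and 1.06) of the Atf6 arm. Creb3l1 was at 1.92 and 2.33 times in sham and 4.21 and 5.51 times in BDL libraries (log2 1.09 and 2.29, adjusted p = 0.000955 and 3.36e-07). Creb3l2 (log2 1.57 and 1.25) was higher in both groups as well, and so was P4hb, at 1.75 and 1.44 times in sham and 2.53 and 3.13 times in BDL libraries. In sham libraries DESeq2 called neither Ssr3 (adjusted p = 0.0507) nor Edem1 (0.195). Ssr3 there was not called without sham replicate 1 (0.149) or sham replicate 2 (0.0895), and Edem1 was not called when any 1 library was left out (0.0735 to 0.413). Dnajc3 there was not called without sham replicate 1 (0.0519), and Dnajb9, higher in BDL libraries (log2 0.75), was not called without BDL replicate 2 (0.11, adjusted p = 0.848). Sdf2l1, called higher in sham libraries (log2 2.73) on 6 and 8 UMIs, was not called without either of them. Ern1 was at 1.78 and 1.16 times in sham, which was not called (adjusted p = 0.0628), and at 3.75 and 5.46 times in BDL libraries (log2 2.19, SE 0.21, adjusted p = 7.95e-07). Herpud1 was lower in mesenchymal-like cells in both groups (log2 -1.24 and -0.88). DESeq2 called no gene of the Atf6 arm lower in BDL libraries and 1 in sham libraries. Atf6 was lower in sham libraries (-0.64, adjusted p = 0.0146), and in BDL libraries the log2 difference was 0.06. Hspa5 was not called in either group (0.19 and 0.38).

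**Figure D5:**
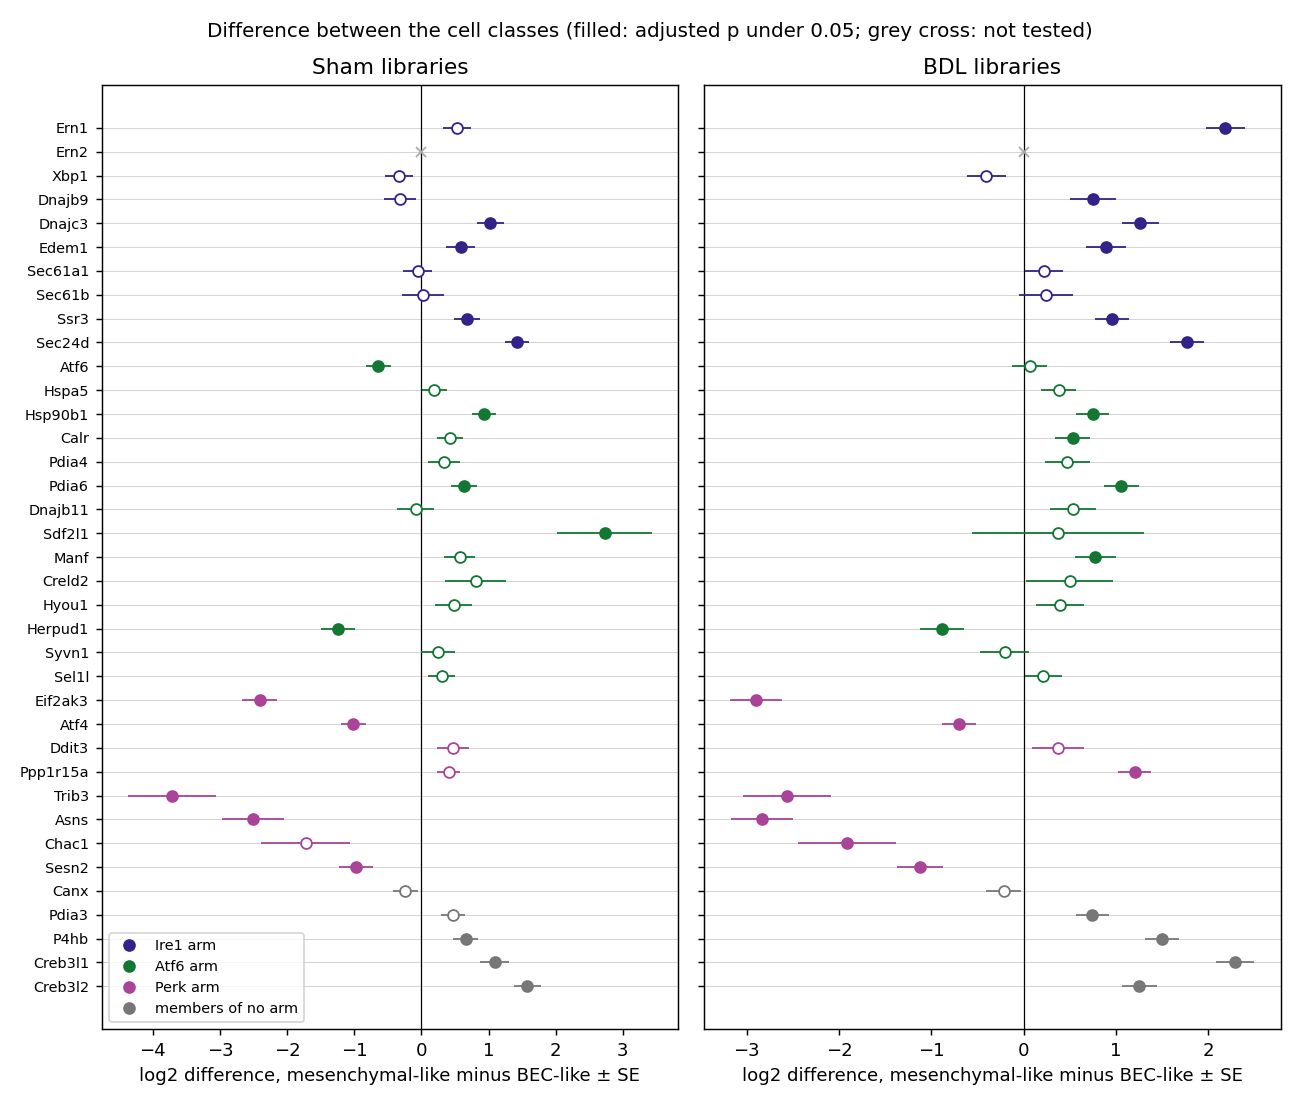
Log2 difference of mesenchymal-like minus BEC-like cells, ± SE, for the 37 members in sham libraries (left) and BDL libraries (right), coloured by arm, from a fit with the library as a block. Filled points passed an adjusted p of 0.05 and grey crosses were not tested; Eif2ak3, Atf4, Trib3, Asns and Sesn2 lie to the left in both panels and Sec24d, Creb3l1 and Creb3l2 to the right.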

How the data were processed

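Single cells of 4 libraries were measured with split-pool barcoding on fixed cells (Parse Biosciences Evercode), primed by oligo(dT) and random hexamers, per the labels' protocols. The deposited matrices hold raw counts of UMIs per gene and cell, per the file headers, and each cell's sum equals the cell table. The genome was GRCm39, per the submitters' processing notes; aligner, cell threshold and doublet removal are not given in the sources used here.

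Of 12211 cells, those with under 500 UMIs or over 20% mitochondrial UMIs were left out, leaving 12194. Scrublet called 14 doublets (0.115%), too few to have worked, leaving 12180 cells. Cells were scaled, log transformed and clustered (2000 variable genes without any listed gene, 30 components, 20 neighbours, Leiden resolution 1; Python 3.11.15, scanpy 1.11.5, leidenalg 0.10.2) into 18 clusters. A non-biliary name needed at least 3 markers and 50% of that class's markers, each in 5% of cells and over 2-fold above other cells; the rest were BEC-like with 3 biliary markers against non-biliary cells. This rule was set after the data were seen. A cluster of 27 cells led by Rgs13 is in BEC-like by this rule.

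Counts were summed per library and class and tested with edgeR 4.0.16 (R 4.3.3; TMM, default filter, quasi-likelihood, two-sided, Benjamini-Hochberg, threshold 0.05). The sums were 8408134 to 31979780 UMIs in BEC-like cells. DESeq2 1.42.0, other size factors, no filter, libraries left out, other clustering, doublets, depth, cycling cells and Alb-positive cells were alternatives. Named genes are the sensors, transcription factors, Hspa5 and the members called, and in each other list up to 2 rises and 2 falls with a mean of 20 CPM and groups that do not overlap; other members are described beside them by role. The members and lists were chosen with earlier results of these data known.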

Additional observations from a re-analysis of the deposited data

Results flagged for a closer look

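The response to ligation differed between BEC-like and mesenchymal-like cells for 2 of 36 members tested, by the interaction of class and group in edgeR, a share close to the 4.45% of all genes called. The log2 fold change of Ern1 in BEC-like minus that in mesenchymal-like cells was -1.66 (adjusted p = 0.00389), with both BDL libraries below both sham libraries in BEC-like cells and above them in mesenchymal-like cells. For Creb3l1 the difference was -1.20 (adjusted p = 0.0282), with both BDL libraries above both sham libraries in mesenchymal-like cells and below them in BEC-like cells, where its own change was not called. The Creb3l1 difference was not called by DESeq2 (adjusted p = 0.123), without sham replicate 1 (0.0979) or without BDL replicate 2 (0.255).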

How the results depend on the processing

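No paired analysis was possible because each library is named in the labels by a number of its own, none of them shared between groups; the replicate numbers 1 and 2 used here follow deposit order and pair nothing. In BEC-like cells the count of members called, 11 in the fit reported, was 17 with no filter on low counts, 5 without cells holding an Alb transcript and 2 to 15 when 1 library was left out; the 26 rises of other ATF4 genes (a count added after seeing the data) became 6 without Alb-positive cells and 13 to 27 when 1 library was left out. In mesenchymal-like cells the count of 1 was 3 with no filter, 2 with high doublet scores removed, 2 in thinned sums and 0 to 1 with a library left out. The count of 2 for the difference in response was 1 by DESeq2, 6 with high doublet scores removed, 1 in thinned sums and 1 to 3 with a library left out. The class difference was called for 11 members by DESeq2 in sham libraries against 17, and for 10 to 17 in sham and 16 to 23 in BDL libraries with a library left out. Counts over all genes moved with the setting as well. With high doublet scores removed, 784 of 8489 genes were called in mesenchymal-like cells, against 490 of 8821 in the fit reported. For the difference in response 1348 of 15080 were called there, against 682 of 15315. The cause of these shifts was not tested.

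Some signs turned (log2 units). In BEC-like cells Xbp1 was -0.034 without Alb-positive cells; Atf6 was 0.032 there and 0.034 with no filter, and -0.17 to 0.0081 with a library left out; Hspa5 was 0.14 in the 2 name-matched libraries and -0.54 to 0.086 with a library left out. In mesenchymal-like cells Dnajb9 was 0.025 with no filter and -0.38 to 0.19 with a library left out, Atf6 -0.70 in the largest cluster, and Hspa5 0.0082 in thinned sums, 0.055 in the name-matched libraries and -0.19 to 0.087 with a library left out. Eif2ak3 was 0.35 with high doublet scores removed, 0.16 in the name-matched libraries and -0.66 to 0.47 with a library left out, and Ppp1r15a was 0.098 in the largest cluster, 0.093 in the name-matched libraries and -0.38 to 0.0012 with a library left out. Shallow mesenchymal-like sums limit what could be called there.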

Other observations

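Endothelial-like cells, 19 to 122 a library, and macrophage-like cells, 12 to 44 a library, were too few for a test of the members. Summed over all 4 libraries, Eif2ak3 was at 27.8 CPM in endothelial-like cells from 11 UMIs and at 301 CPM in macrophage-like cells from 122 UMIs. Ppp1r15a was at 717 CPM in endothelial-like cells from 284 UMIs and at 170.4 CPM in macrophage-like cells from 69 UMIs. Asns had 2 UMIs in endothelial-like cells and 20 UMIs in macrophage-like cells. These values pool both groups and have no error over libraries.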
